A study of Mus musculus with 21 samples.

Results

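The genes described here encode SR proteins, hnRNP proteins, snRNP proteins and the SF3A and SF3B subunits, the core families of pre-mRNA splicing factors. They were chosen by symbol alone: all genes of the table whose symbol starts with Srsf, Hnrnp, Snrp, Sf3a or Sf3b, apart from symbols holding -ps or ending in Rik, of which there were 0. This gave 53 of the 20960 genes in the table, namely 11 Srsf, 20 Hnrnp, 13 Snrp and 9 Sf3 genes. The hearts came from 7 mice, all adult, male and wild type. The nanoplastics group held 4 mice given polystyrene nanoplastics, plastic particles of nanometre size, over 8 weeks, and the control group held 3 mice given distilled water. The labels give no particle size, dose, route or strain. Each heart was divided into 3 sections labelled atrial, right ventricular and left ventricular, and each section gave its own bulk library from polyadenylated RNA, which makes 21 libraries.

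Splicing removes introns from pre-mRNA in the spliceosome, which is built from small nuclear ribonucleoproteins (snRNPs). Each of the snRNPs U1, U2, U4 and U5 carries a ring of Sm proteins around its RNA, SF3A and SF3B tie the U2 snRNP to the branch point of the intron, and SR proteins and hnRNP proteins bind the pre-mRNA and promote or repress the choice of exons. In heart muscle, alternative splicing sets the isoforms of titin, troponin T and calcium-handling proteins during growth and disease.

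Library totals ran from 413436 to 2439314 counts, apart from the right ventricular library of nanoplastics mouse 2, which held 4662. In that library 6 of the 53 genes were detected, against 49 to 52 in each of the others, and its zeros are limits of depth. The labelled tissue held its defining transcripts: the summed level of 6 cardiac muscle markers was 46120 ± 5534 CPM (counts divided by the library total and put on the usual counts-per-megacount scale) in nanoplastics mice and 41460 ± 5836 CPM in control mice (SD, n = 4 and 3). The section label did not: the sum of 5 atrial muscle markers ranged from 29.3 to 63890 CPM over the 7 libraries labelled atrial, with a median of 359.1 CPM, and the highest value was that of nanoplastics mouse 1. Of these markers the growth factor gene Bmp10 was at or near 0 in every mouse. Summed per mouse, the 5 markers ranged from 207.2 to 17700 CPM in nanoplastics mice and from 197.5 to 323.8 CPM in control mice. The atrial library supplied 43.95 ± 17.56% of all counts in nanoplastics mice and 27.21 ± 13.18% in control mice, and the right ventricular library 14.32 ± 11.51% and 39.11 ± 4.196% (SD, n = 4 and 3).

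The counts of some members cannot be tied to a single locus. Snrpert is annotated in GENCODE M21 as a processed pseudogene, a reverse-transcribed copy of the Sm gene Snrpe. Snrpert had 58 counts over all libraries and Snrpe 2868, and no label says how reads that match both were counted. Both values are therefore uncertain. Those of Snrpb and Snrpn, which encode near-identical Sm proteins, may be uncertain too, but whether these genes share reads was not tested.

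Promoters of these genes held more CpG dinucleotides than those of all genes. Promoter windows of 300 bases around the annotated gene start were found for 46 of the 53 genes in the RefSeq table of build GRCm38.p6, and were set beside those of all 27025 genes in it. The windows held a median of 25 CpG dinucleotides, against 7 over all genes. A GC box (GGGCGG) was present in 32 of the 46 windows (69.6%) against 35.9% of all windows, and the ETS core CCGGAAG in 16 (34.8%) against 9.12%. The motif CCAAT was present in 22 (47.8%) against 37.9% and TATAAA in 6 (13.0%) against 14.2%, with both strands searched for each motif and no overlap between the motifs marked in the windows printed here. The ETS core was found in 6 of 7 Sf3 windows, 4 of 10 Snrp, 4 of 11 Srsf and 2 of 18 Hnrnp windows. A match of letters is a description and not a binding site. Expressed genes alone were not used as a background, so these shares are not shown to be particular to splicing genes.

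The windows of the 3 members with the smallest p-values in the whole heart are printed so that the starts of these members can be compared, with motif matches in capitals. Snrpd2 lies on the plus strand at chr7:19149588-19149887 and its window holds 20 CpG and a GC box on the reverse strand. Hnrnpa2b1 lies on the minus strand at chr6:51469845-51470144 for the first of its 2 listed starts, with 34 CpG and a CCAAT box on the reverse strand. Srsf10 lies on the plus strand at chr4:135855821-135856120, with 38 CpG, 3 GC boxes and a CCAAT box. None of the 3 windows holds CCGGAAG or TATAAA.
Snrpd2: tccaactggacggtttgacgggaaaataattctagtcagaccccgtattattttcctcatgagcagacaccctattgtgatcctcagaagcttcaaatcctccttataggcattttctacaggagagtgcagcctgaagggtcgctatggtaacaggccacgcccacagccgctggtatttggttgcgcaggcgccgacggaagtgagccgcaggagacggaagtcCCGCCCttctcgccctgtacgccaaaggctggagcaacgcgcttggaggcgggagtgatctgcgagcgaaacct
Hnrnpa2b1: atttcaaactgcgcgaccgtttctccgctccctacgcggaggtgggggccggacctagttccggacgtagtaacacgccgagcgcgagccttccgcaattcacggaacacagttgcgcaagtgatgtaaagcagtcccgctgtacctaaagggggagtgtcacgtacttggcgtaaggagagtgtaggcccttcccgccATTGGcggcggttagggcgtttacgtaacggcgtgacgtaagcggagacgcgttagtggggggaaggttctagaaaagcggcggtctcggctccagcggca
Srsf10: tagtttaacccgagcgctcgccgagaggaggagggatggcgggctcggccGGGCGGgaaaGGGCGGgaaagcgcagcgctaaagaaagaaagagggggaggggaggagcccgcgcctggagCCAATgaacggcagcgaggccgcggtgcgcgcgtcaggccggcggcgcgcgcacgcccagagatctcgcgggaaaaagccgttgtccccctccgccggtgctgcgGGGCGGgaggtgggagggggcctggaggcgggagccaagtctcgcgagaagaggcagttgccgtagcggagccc

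Set per length of the longest annotated transcript, the Sm genes Snrpe and Snrpd2 and the hnRNP gene Hnrnpa2b1 led the 53 genes. Mean levels over the 7 hearts were 171.5 CPM per kb for Snrpe, 124.2 CPM per kb for Snrpd2 and 67.71 CPM per kb for Hnrnpa2b1. Snrpg followed at 54.24, Snrpb at 47.91, Snrpf at 43.51 and the SF3B gene Sf3b6 at 42.74 CPM per kb. Among SR proteins Srsf7 at 20.3 and Srsf5 at 19.59 CPM per kb lay close together. The lowest were Srsf12 at 0.008817, Sf3a2 at 0.5528 and Sf3b4 at 0.754 CPM per kb. The annotated length stands in for the RNA's own, which was not measured. Whether counts rise with length in these libraries was not tested. Without division by length the order was Hnrnpa2b1 at 246.8, Snrpd2 at 176.4 and Snrpe at 114.8 CPM.

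Nanoplastics and control mice were first compared in the whole heart, with the 3 libraries of each animal added together. Of the 53 genes, 48 passed the filter on low counts. Snrpd2, which encodes the Sm protein D2, was higher in nanoplastics hearts and was the only member called, and the other 47 did not pass. That is 1 of 48, beside 2.56% of the 8485 genes tested (1.79% higher and 0.766% lower). At an unadjusted p under 0.05, 5 of 48 members were higher and 5 lower, beside 9.15% and 9.02% of all genes (18.2% in either direction).

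Snrpd2 had 229.8, 194.5, 186.9 and 198.6 CPM in nanoplastics mice, against 151.3, 136.8 and 137.1 CPM in control mice (CPM of single genes are scaled here and below with TMM, edgeR's trimmed mean of log ratios). Every nanoplastics mouse lay above every control mouse, and mouse 1 was the highest. The means were 202.4 ± 18.87 CPM and 141.7 ± 8.283 CPM (SD, n = 4 and 3), with a log2 change of 0.51 (SE 0.13; edgeR quasi-likelihood test, Benjamini-Hochberg adjusted p = 0.0416). The call was close to its threshold. It was lost with library totals as the only scaling (log2 change 0.27, adjusted p = 0.134), with the trend on transcript length removed (0.39, adjusted p = 0.0956), without a filter on low counts (0.49, adjusted p = 0.053), and without nanoplastics mouse 1, 2 or 4 or control mouse 2 or 3 (0.45 to 0.54, adjusted p 0.0537 to 0.186). In bulk RNA, more cells of a type and more RNA per cell cannot be told apart.

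The Sm ring is a fixed heptamer of the proteins B, D1, D2, D3, E, F and G, and its genes did not shift evenly. Snrpe, which encodes Sm E, had 155.2, 125.7, 116.4 and 109.3 CPM in nanoplastics mice, against 114.8, 99.76 and 82.17 CPM in control mice. Snrpg, which encodes Sm G, had 90.03, 66.53, 47.82 and 57.1 CPM in nanoplastics mice, against 56.67, 39 and 43.4 CPM in control mice. The groups overlapped for both genes, with log2 changes of 0.35 (SE 0.15, adjusted p = 0.208) and 0.49 (SE 0.19, adjusted p = 0.167). Log2 changes were 0.18 for Snrpb, 0.05 for Snrpf, 0.02 for Snrpd1 and -0.17 for Snrpd3, which encode Sm B, F, D1 and D3, with adjusted p from 0.575 to 0.971. Snrpn, which encodes the Sm N form of B in brain and heart, had -0.20 (adjusted p = 0.616).

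**Figure D1:**
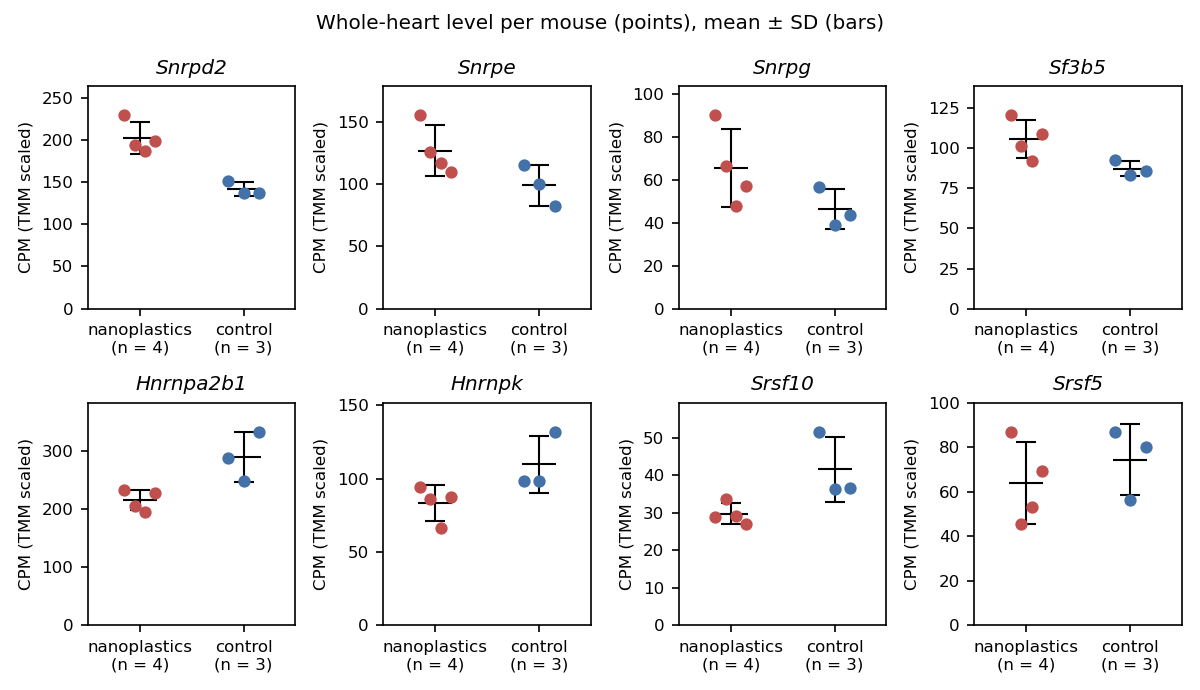
Whole-heart levels of 8 members in CPM scaled by TMM, with each mouse as a point and the mean ± SD as bars, nanoplastics mice on the left (n = 4) and control mice on the right (n = 3). Snrpd2 lies higher and Hnrnpa2b1, Hnrnpk and Srsf10 lie lower in all nanoplastics mice than in any control mouse, while the groups overlap in Snrpe, Snrpg, Sf3b5 and Srsf5.

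The balance within the ring needs no scaling between libraries. Snrpd2 took 30.84, 31.61, 31.41 and 33.27% of the counts of the 7 ring genes in nanoplastics mice, against 25.18, 26.95 and 28.71% in control mice. Every nanoplastics mouse lay above every control mouse, with means of 31.78 ± 1.044% and 26.94 ± 1.767% (SD, n = 4 and 3). The ratio of Snrpd2 to Snrpd1 counts was 6.421, 5.613, 4.971 and 6.718 in nanoplastics mice, against 4.062, 4.011 and 4.602 in control mice. Here too the groups did not overlap. The share of Snrpd3 was 13.46 ± 1.862% and 17.73 ± 3.151%, with overlapping mice. Since Snrpd2 was chosen for its call, these shares describe that difference and were not tested. A share shows unequal change within the ring and not which gene changed.

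By single library the share of Snrpd2 kept this order in the ventricles. In the left ventricle it was 30.75, 33.39, 31.09 and 34.2% in nanoplastics mice, against 24.5, 25.38 and 29.07% in control mice. In the right ventricle it was 33.75, 34.27 and 39.39% in nanoplastics mice 1, 3 and 4, against 26.11, 26.1 and 28.97% in control mice, and the library of 4662 counts held 3 ring counts, none of them from Snrpd2. In the atrial sections it was 29.64, 30.36, 29.42 and 31.73% in nanoplastics mice, against 24.85, 31.9 and 28.33% in control mice, so that there the groups overlapped. The exact Clopper-Pearson 95% intervals of single libraries, which cover counting error only, spanned several percentage points, for example 27.85 to 33.76% in the left ventricle of nanoplastics mouse 1.

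**Figure D2:**
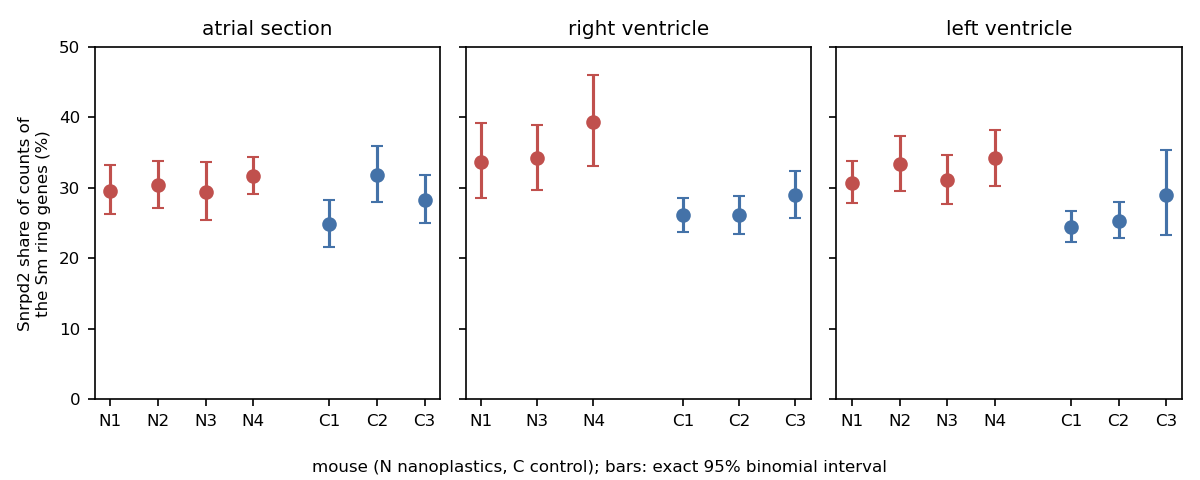
Share of Snrpd2 in the summed counts of the 7 Sm ring genes (percent, axis from 0) in each library by section, with exact 95% binomial intervals, nanoplastics mice (N) on the left and control mice (C) on the right; the library with 3 ring counts is left out. The nanoplastics libraries lie above the control libraries in both ventricles, and the groups overlap in the atrial sections.

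Of the members whose proteins mark U1 and U2, none was called. Snrpc and Snrpa, which encode the U1 proteins C and A, had log2 changes of 0.05 and -0.16, and Snrpa1 and Snrpb2, which encode the U2 proteins A' and B'', had -0.07 and 0.32. Adjusted p-values were at least 0.301. The U1 gene Snrnp70 lies outside the symbol rule. It had 6.794 ± 2.49 CPM in nanoplastics mice and 10.81 ± 1.609 CPM in control mice, with overlapping mice (SD, n = 4 and 3). Snrpb2 had 51.61, 42.97, 45.63 and 34.15 CPM in nanoplastics mice, against 34.25, 36.82 and 33.27 CPM in control mice, with the lowest nanoplastics mouse inside the range of the controls. Over the 12 tested Snrp genes, 8 log2 changes lay above 0 and 4 below, with a median of 0.05, beside -0.03 over all genes tested. This median turned to -0.20 with library totals alone, which moved the median of all genes to -0.27, and to -0.06 with the length trend removed, and it was -0.03 without nanoplastics mouse 1.

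The 7 tested Sf3 genes had the highest family median, 0.28, and gave no call. Sf3b5, a small SF3B subunit with the most counts among Sf3 genes before division by length, had 120.9, 101.6, 92.35 and 109 CPM in nanoplastics mice, against 92.69, 83.62 and 85.93 CPM in control mice. The lowest nanoplastics mouse lay just under the highest control mouse (log2 change 0.28, SE 0.13, adjusted p = 0.278). Sf3b6, the subunit that sits next to the branch point adenosine, had 103.2, 89.17, 72.64 and 68.01 CPM in nanoplastics mice, against 75.38, 62.76 and 59.6 CPM in control mice (0.33, SE 0.16, adjusted p = 0.271). Its groups overlapped. The large scaffold gene Sf3b1 had -0.10 and its partner Sf3b3 0.44, and Sf3a1 and Sf3a3, of the SF3A complex, had 0.53 and 0.17. Sf3b2 had -0.04. Of the 7 values 5 lay above 0 and 2 below, with a median of 0.03 under library totals alone.

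SR proteins carry an arginine and serine rich domain and mostly promote exon inclusion. None of the 9 tested Srsf genes was called, and 8 had a log2 change below 0 and 1 above. The median was -0.21 (-0.46 with library totals alone, beside -0.27 over all genes). Without control mouse 3 this median was -0.09 and without control mouse 2 it was -0.38, and it was -0.37 without nanoplastics mouse 1 and -0.13 without nanoplastics mouse 2 or 3. Srsf10, a splicing repressor that is switched on by loss of phosphate, had 29.01, 33.73, 29.2 and 26.97 CPM in nanoplastics mice, against 51.73, 36.46 and 36.75 CPM in control mice. The groups did not overlap, with control mouse 1 far above the rest (log2 change -0.50, SE 0.17, adjusted p = 0.107). Without that mouse the log2 change was -0.28 (adjusted p = 0.5). Srsf1, an SR protein needed for cardiac remodelling after birth in mice, had 7.534, 9.241, 7.665 and 8.609 CPM in nanoplastics mice, against 11.65, 11.06 and 14.76 CPM in control mice. These groups did not overlap either (-0.58, SE 0.21, adjusted p = 0.145).

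The SR gene with the most counts before division by length, Srsf5, did not separate the groups. It had 87.02, 45.28, 53.29 and 69.16 CPM in nanoplastics mice, against 86.68, 56.23 and 79.86 CPM in control mice (log2 change -0.21, adjusted p = 0.633). Srsf3, a regulator of splicing and RNA export, had a log2 change of 0.00 (SE 0.14) and means of 35.11 ± 1.006 CPM and 35.35 ± 5.185 CPM (SD, n = 4 and 3). Srsf2, Srsf4, Srsf6, Srsf7 and Srsf11 ranged from -0.47 to -0.13. Srsf9 and Srsf12 did not pass the filter: Srsf9 had 4, 1, 5 and 2 counts in nanoplastics mice, against 22, 15 and 6 in control mice, and Srsf12 had a single count, in a control mouse.

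hnRNP proteins package nascent transcripts and often repress exons, and their genes lay mostly lower in nanoplastics hearts without any call. Of 20 tested, 15 log2 changes lay below 0 and 5 above, with a median of -0.22. With library totals alone this median was -0.46, beside -0.27 over all genes. It ran from -0.21 to -0.15 over the 7 fits that left out a mouse. Hnrnpa2b1, the highest of them per length and a reader of modified RNA, had 232.8, 204.7, 195.3 and 226.4 CPM in nanoplastics mice, against 287.4, 248 and 333 CPM in control mice. The groups did not overlap (log2 change -0.43, SE 0.14, adjusted p = 0.0885). DESeq2 called it lower (-0.40, adjusted p = 0.0496), as did limma-voom over single libraries (-0.46, adjusted p = 0.042) and edgeR with library totals alone (-0.68, adjusted p = 0.00964). These were 3 of 15 alternatives, and it was called in none of the 7 fits that left out a mouse (-0.52 to -0.31, adjusted p 0.109 to 0.313).

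Hnrnph3 and Hnrnpk showed the same order of mice. Hnrnph3, of the family that binds runs of guanines, had 13.18, 14.79, 13.87 and 10.9 CPM in nanoplastics mice, against 22.77, 16.87 and 17.36 CPM in control mice (log2 change -0.55, SE 0.19, adjusted p = 0.127). Hnrnpk, which binds runs of cytosines, had 94.18, 86.4, 66.07 and 87.23 CPM in nanoplastics mice, against 98.69, 98.49 and 132.2 CPM in control mice (-0.39, SE 0.15, adjusted p = 0.163). Hnrnpr had 25.5 ± 1.413 CPM and 31.22 ± 1.099 CPM (SD, n = 4 and 3) without overlap (-0.29, adjusted p = 0.329). Hnrnpa0 had the highest value of the family, 0.61 (SE 0.29, adjusted p = 0.269), with overlapping mice. Hnrnpc, which sits on uridine tracts, had 0.00 (SE 0.14), and Hnrnpu, a scaffold of chromatin whose loss in mouse heart muscle is lethal, had -0.23 (SE 0.16, adjusted p = 0.476). Hnrnpa1 had -0.14 and Hnrnpl, which represses exons at CA repeats, -0.06.

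**Figure D3:**
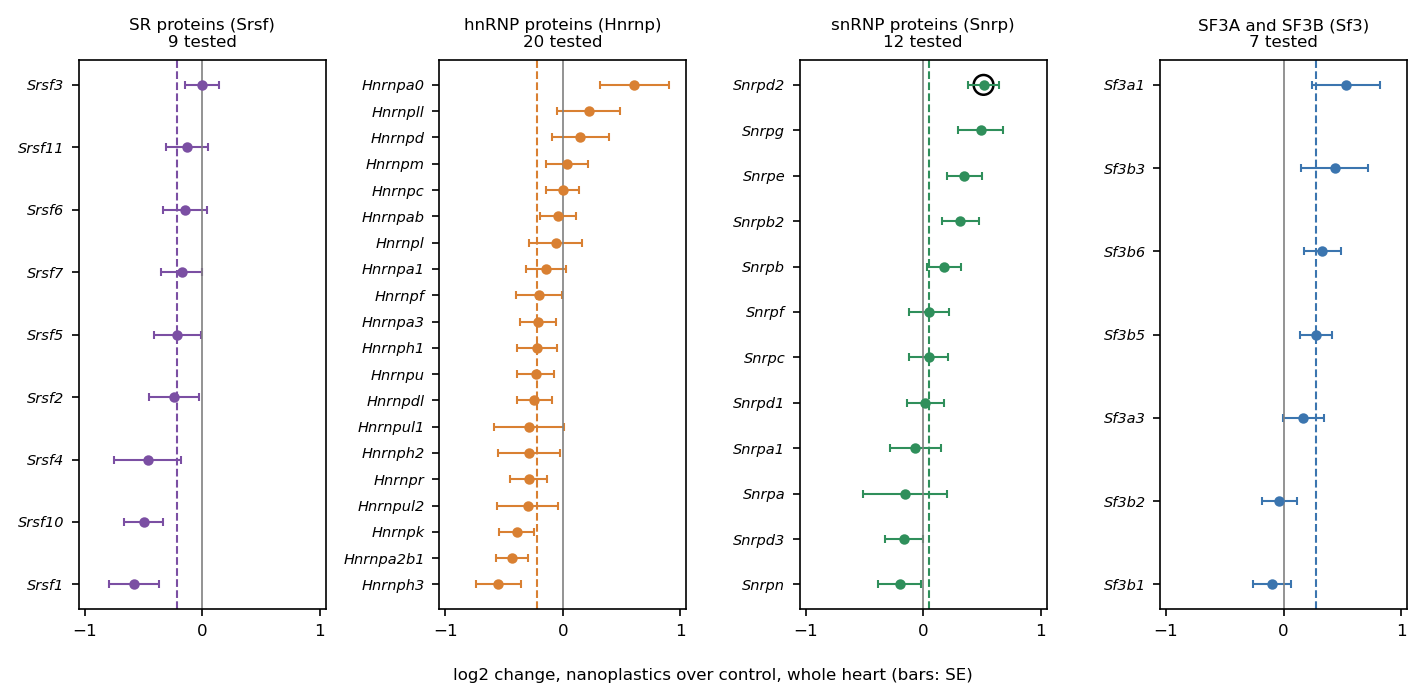
Log2 change between nanoplastics and control mice in the whole heart (points, with SE bars) for the 48 tested members in 4 families; dashed lines are family medians and the ring marks the called gene. Srsf and Hnrnp genes lie mostly left of 0 with medians of -0.21 and -0.22, Snrp and Sf3 genes spread to the right with medians of 0.05 and 0.28, and Snrpd2 alone was called.

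Counted over mice, 1 of the 48 members had all nanoplastics mice above all control mice (Snrpd2) and 6 had all below (Srsf1, Srsf10, Hnrnpa2b1, Hnrnph3, Hnrnpk and Hnrnpr). Over all genes these shares were 7.88% and 8.17%, or 16.1% in either direction. The summed TMM-scaled level of the Hnrnp genes was 790.7, 835.4, 768.7 and 800.3 CPM in nanoplastics mice, against 917.3, 907.5 and 1034 CPM in control mice, without overlap. That of the Snrp genes was 893.2, 728.6, 719.1 and 729.7 CPM in nanoplastics mice, against 728.2, 631 and 599.8 CPM in control mice. Without TMM, the Hnrnp sums kept this order, at 737.5 ± 40.49 CPM and 1045 ± 122 CPM, whereas the Snrp sums were 706.4 ± 47.81 CPM and 712.4 ± 31.08 CPM (SD, n = 4 and 3). Hnrnpa2b1 alone took 26.91 ± 2.337% of Hnrnp counts in nanoplastics mice and 30.29 ± 2.603% in control mice, so the Hnrnp sums lean on that gene. The TMM factors themselves differed between the groups, 0.9296 ± 0.03886 in nanoplastics mice and 1.104 ± 0.06376 in control mice, and the levels depend on this scaling.

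Transcript length differed between the groups' counts and between the families. The median annotated length per count was 1526 ± 57.6 nt in nanoplastics mice and 1739 ± 44.14 nt in control mice (SD, n = 4 and 3). Among all tested genes, split into 5 classes of length, the shortest class (57 to 1644 nt) had a median log2 change of 0.18 and the longest (5063 to 123179 nt) one of -0.10. The 5 members in the shortest class were all Snrp genes and had a median of 0.35, and the 8 in the longest had -0.22. Over the 48 members Spearman's rho between length and log2 change was -0.30, and over 8407 genes -0.26, as a description across genes that share the same libraries. Snrp genes had a median length of 1700 nt, against 3482 nt for Srsf, 3714 nt for Hnrnp and 3841 nt for Sf3 genes. The Sf3 value is the length of Sf3b5, while Sf3b6 and Sf3a3 had 1774 and 1820 nt. The Sf3 median log2 change was 0.28. With the length trend removed, the call of Snrpd2 was lost and no member was called. Whether length caused these differences was not tested.

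**Figure D4:**
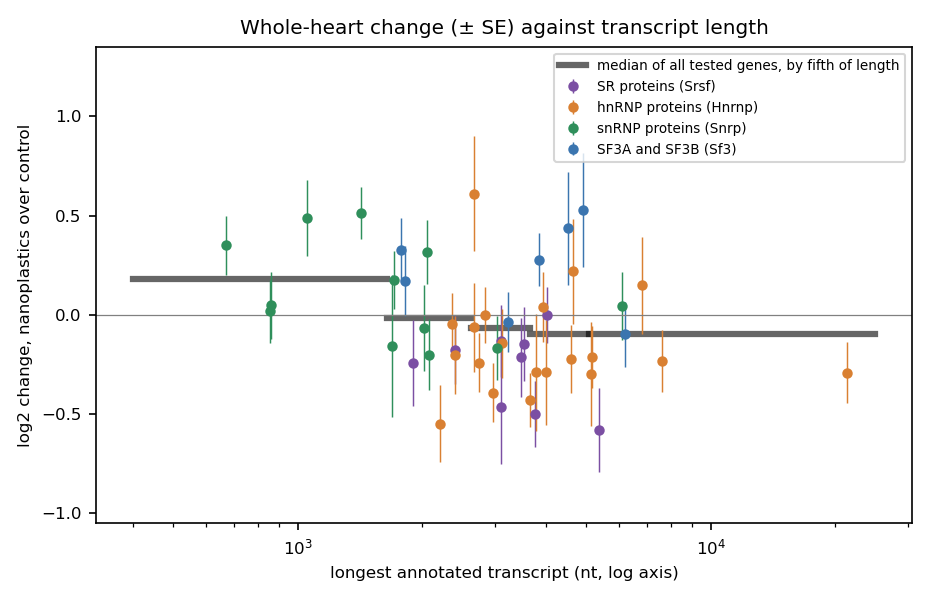
Log2 change in the whole heart (± SE) of the 48 tested members against the length of their longest annotated transcript (nt, log axis), coloured by family; the thick bars are medians of all tested genes in 5 classes of length. The bars step down from 0.18 to -0.10, the 5 shortest members, all Snrp genes, lie above 0, and most Sf3 genes lie above the bars at lengths where most Srsf and Hnrnp genes lie below.

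Within single sections no member was called. In the atrial section 40 members were tested, beside 0% called of 5502 genes, and 674 genes (12.3%) had an unadjusted p under 0.05, among them 3 members higher, beside 6.47% of all genes, and 1 lower, beside 5.78%. Snrpe had the smallest p, with 190.9, 132.7, 117.9 and 109.8 CPM in nanoplastics libraries, against 97.39, 94.91 and 74.38 CPM in control libraries. Mouse 1, whose atrial library held the most atrial muscle transcripts, was the highest, and the groups did not overlap (log2 change 0.61, SE 0.22, adjusted p = 0.308). Snrpd2 had 269.3, 192.7, 179.9 and 197.6 CPM in nanoplastics libraries, against 153.4, 164 and 141.6 CPM in control libraries (0.44, SE 0.19, adjusted p = 0.374). Hnrnpu had 43.15, 42.25, 48.62 and 42.66 CPM in nanoplastics libraries, against 48.69, 76.48 and 60.79 CPM in control libraries, a gap of less than 1 CPM between the nearest mice (-0.51, SE 0.22, adjusted p = 0.376).

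In the right ventricle 36 members were tested, none called, beside 0.869% of 4489 genes, and 1 higher and 7 lower had an unadjusted p under 0.05, beside 6.82% and 6.68% of all genes (13.5% in either direction). Srsf6 had 24.73, 0, 8.393 and 5.108 CPM in nanoplastics libraries, against 23.96, 20.52 and 30.81 CPM in control libraries, where the 0 belongs to the library of 4662 counts. Its log2 change was -1.04 (SE 0.37, adjusted p = 0.129). Mouse 1 lay inside the range of the controls, and without it the gene was called (-1.78, adjusted p = 0.0477). Over the 7 fits that left out a mouse, the log2 change of Srsf6 ran from -1.78 to -0.72 (adjusted p 0.0477 to 0.42). Srsf10 had 22.26, 0, 36.37 and 15.32 CPM in nanoplastics libraries, against 53.79, 45.89 and 35.71 CPM in control libraries (-0.78, SE 0.29, adjusted p = 0.154). Without nanoplastics mouse 3, which overlapped the controls, it was called (-1.27, adjusted p = 0.0365). Over the 7 fits that left out a mouse, the log2 change of Srsf10 ran from -1.27 to -0.57 (adjusted p 0.0365 to 0.564). Hnrnpa3 had 64.3, 0, 85.33 and 71.51 CPM in nanoplastics libraries, against 113.4, 127.4 and 99.44 CPM in control libraries (-0.61, SE 0.25, adjusted p = 0.199).

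In the left ventricle 40 members were tested, none called, beside 0.0551% of 5440 genes, and 3 higher and 5 lower had an unadjusted p under 0.05, beside 6.73% and 7.39% of all genes (14.1% in either direction). Snrpd2 had 218.9, 221.6, 206 and 241.6 CPM in nanoplastics libraries, against 164, 136 and 162.5 CPM in control libraries. All 4 lay well above the controls, with a log2 change of 0.51 (SE 0.16, adjusted p = 0.147), and DESeq2 called it (0.57, adjusted p = 0.0142). Hnrnpa2b1 had 271.2, 191.8, 227.9 and 216 CPM in nanoplastics libraries, against 321.1, 286.3 and 320.2 CPM in control libraries (-0.46, SE 0.15, adjusted p = 0.171). Hnrnph3 had 11.79, 11.48, 14.24 and 12.2 CPM in nanoplastics libraries, against 27.72, 18.79 and 14.78 CPM in control libraries (-0.84, SE 0.29, adjusted p = 0.173). The groups overlapped in neither gene.

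Counts of members whose groups did not overlap were 3 above and 2 below in the atrial section, beside 7.11% and 6.05% of all genes (13.2% in either direction). In the right ventricle they were 0 above and 4 below, beside 1.09% and 8.64% (9.73%), with the zeros of the library of 4662 counts included. In the left ventricle they were 2 above and 3 below, beside 6.86% and 5.66% (12.5%).

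The 36 members tested in all 3 sections could be followed by direction. 6 had a log2 change above 0 in all sections, namely Snrpd2, Snrpe, Snrpg, Snrpb2, Sf3b5 and Sf3b6, and 12 had one below 0 in all. These are 16.67% and 33.33%, beside 25.52% and 26.58% of 4451 genes. By family, the 12 held 7 of 13 Hnrnp, 4 of 7 Srsf, 1 of 11 Snrp and 0 of 5 Sf3 genes, and the 6 held 4 Snrp and 2 Sf3 genes. Snrpd2 was the most even of the 6, at 0.44, 0.58 and 0.51 in atrial, right and left ventricular sections, while Snrpe ran from 0.61 to 0.28 and 0.13. Sections of a mouse share the animal, so these are not independent repeats.

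**Figure D5:**
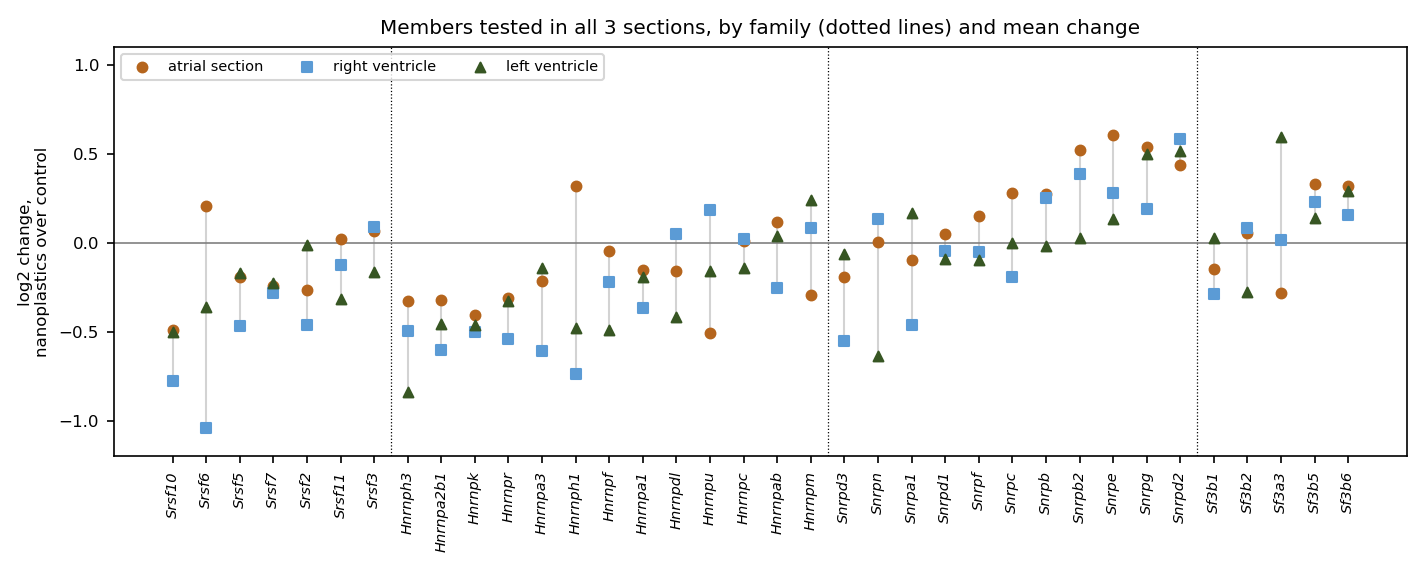
Log2 change between nanoplastics and control mice in each of the 3 sections for the 36 members tested in all of them, ordered by family and mean change, with grey lines joining the lowest and highest section. Snrpd2 sits between 0.44 and 0.58 in all sections, Srsf10, Hnrnpa2b1 and Hnrnpk lie below 0 in all, and Srsf6 and Hnrnph1 spread on both sides of 0.

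Whether the log2 change between treatments differed between sections was tested with an interaction term and the mouse as a block, and no member was called, beside 0% of 6269 genes in either test. Between atrial section and left ventricle 345 genes (5.5%) had an unadjusted p under 0.05, among them 4 of 43 members. Hnrnph1 had the smallest p, with log2 changes of 0.32 in the atrial section and -0.48 in the left ventricle (difference 0.97, SE 0.35, adjusted p = 0.851), where the difference comes from a joint fit with the mouse as a block and is not the subtraction of the separate fits. Sf3a3 had -0.28 and 0.59 (difference -0.85, SE 0.35, adjusted p = 0.866), and Srsf1 had a difference of -1.16 (SE 0.50, adjusted p = 0.896). Between right and left ventricle 188 genes (3%) had an unadjusted p under 0.05, among them 1 member, Snrpd3 (difference -0.59, SE 0.28, adjusted p = 1). Srsf6 had a difference of -0.69 (SE 0.43, adjusted p = 1), and Snrpn 0.62 (SE 0.37, adjusted p = 1).

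The sections themselves were compared in pairs over all 7 mice with the mouse as a block, and no member was called in any pair, beside 0.155% of 5176 genes for atrial section against left ventricle, 0.606% of 4954 for atrial section against right ventricle and 0.02% of 5012 for right against left ventricle. Median levels of Snrpg were 69.28 CPM in the atrial section (range 42.39 to 129.4) and 57.29 CPM in the left ventricle (24.63 to 75.9), higher in 6 of 7 mice (log2 difference 0.43, SE 0.14, adjusted p = 0.223). Those of Sf3b2 were 53.64 CPM in the atrial section (41.34 to 68.07) and 40.19 CPM in the left ventricle (30.21 to 56.64), higher in 6 of 7 mice (0.43, SE 0.16, adjusted p = 0.261). Snrpd3 had 70.8 CPM in the atrial section (61.99 to 121.3) and 104.6 CPM in the left ventricle (66.5 to 136.8), lower in 5 of 7 mice (-0.36, SE 0.13, adjusted p = 0.263).

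At an unadjusted p under 0.05, 6 members passed between atrial section and left ventricle, 1 between atrial section and right ventricle and 1 between the ventricles. The shares of all genes were 12.6%, 7.27% and 5.21%. Not all of the 53 members were tested in these pairs, so the counts are not shares of 53. Between the atrial section and the right ventricle the smallest p were those of Snrpg (log2 difference 0.37, SE 0.16, adjusted p = 0.526), Hnrnpm (0.37, SE 0.19, adjusted p = 0.706) and Srsf6 (0.40, SE 0.21, adjusted p = 0.71), each higher in 5 of the 6 mice other than nanoplastics mouse 2, whose right ventricular zeros are limits of depth. Between the ventricles Srsf6 and Srsf7 were lower in the right in 6 of these 6 mice, with -0.50 (SE 0.18, adjusted p = 0.593) and -0.27 (SE 0.14, adjusted p = 0.914), and Snrpd1 had -0.27 (SE 0.15, adjusted p = 0.957). Median levels of Srsf6 were 20.52 CPM in the right ventricle (0 to 30.81) and 27.26 CPM in the left (19.52 to 34.48), where the 0 is again the library of 4662 counts. The levels of Snrpd2 lay close together, with medians of 179.9, 163.8 and 206 CPM in atrial, right and left ventricular sections and log2 differences of -0.04, -0.02 and 0.03 between them (adjusted p from 0.92 to 1).

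Other genes of the splicing machinery were counted from 9 lists chosen with results of these data known. In the whole heart none was called among 25 tested proteins of other snRNPs, 11 Lsm proteins and 16 branch point and 3' splice site factors. Only some of the Lsm proteins form the ring of U6. Also tested without a call were 25 factors of the Prp19 complex and catalytic steps and 24 SR protein kinases and coactivators. The same held for 23 tissue and alternative splicing regulators, 23 other nuclear RNA-binding proteins and 13 proteins of snRNP assembly. Over all 8485 genes tested in the whole heart, 2.56% were called. Among 11 genes of the exon junction complex and nonsense-mediated decay, Smg5 fell. It encodes an adaptor that brings phosphatase to the decay factor UPF1, and had 4.897, 5.544, 8.03 and 4.878 CPM in nanoplastics mice, against 12.53, 10.34 and 10.71 CPM in control mice, without overlap (log2 change -0.95, SE 0.24, adjusted p = 0.0416).

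Regulators known for heart splicing were not called in the whole heart. Rbm20, the repressor of titin exons, had 14.18 ± 2.578 CPM in nanoplastics mice and 15.03 ± 1.928 CPM in control mice (SD, n = 4 and 3, log2 change -0.09, SE 0.20). Rbfox1 had -0.21, Mbnl1 0.07 and Celf1 -0.45 (SE 0.17, adjusted p = 0.15), and the groups did not overlap for Celf1, with 20.64 ± 2.496 CPM and 27.98 ± 2.102 CPM. Ptbp1 did not pass the filter, with 4, 4, 5 and 8 counts in nanoplastics mice, against 26, 21 and 8 in control mice. In the right ventricle Matr3, which encodes the nuclear matrix protein matrin 3, rose, with 27.2, 0, 37.77 and 40.86 CPM in nanoplastics libraries, against 13.69, 16.2 and 13.31 CPM in control libraries (log2 change 1.29, SE 0.31, adjusted p = 0.0112). The 0 belongs to the library of 4662 counts, and the other 3 lay above the controls. Matr3 is named because it was the only gene of the 9 lists called in that section, after its values were seen.

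Markers of other cell types were set beside these results. The summed level of 5 fibroblast markers was 1287 ± 264.7 CPM in nanoplastics mice and 1057 ± 41.81 CPM in control mice, and that of 5 endothelial markers 1096 ± 32.99 CPM and 1150 ± 73.32 CPM (SD, n = 4 and 3). Macrophage markers had ranges of 443.3 to 851.6 CPM and 445.4 to 884.3 CPM, and erythroid markers 425 to 1266 CPM and 232.5 to 1175 CPM. Of the genes tested, 1 of 5 fibroblast markers (Dcn), 1 of 6 cardiac muscle markers (Tnni3) and 1 of 2 ventricular muscle markers (Myl2) were called higher, and none of the atrial muscle, endothelial, macrophage or erythroid markers was called. T and B cell markers and proliferation markers lay at or below 12.01 CPM in every mouse. In the single sections 1 marker was called between treatments, the atrial hormone gene Nppa in the right ventricle (log2 change 1.08, adjusted p = 0.00857). Between sections, the collagen gene Col1a2 was called higher in the atrial section than in either ventricle (log2 difference 0.94 from the right), and the globin gene Hbb-bt was lower in the atrial section than in the right ventricle (-1.42). Their part in the levels of the splicing genes was not tested. Without the atrial library of nanoplastics mouse 1 Snrpd2 had a log2 change of 0.50 (adjusted p = 0.0377), and without the library of 4662 counts one of 0.51 (adjusted p = 0.0419).

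The 5 members below the filter in the whole heart were Sf3a2, Sf3b4, Srsf9, Srsf12 and Snrpert. Sf3b4, an SF3B subunit that contacts the pre-mRNA upstream of the branch point, had 3, 1, 2 and 5 counts in nanoplastics mice, against 13, 8 and 9 in control mice. Sf3a2 had 4, 1, 3 and 3 counts in nanoplastics mice, against 7, 6 and 8 in control mice, and Snrpert had 6, 8, 4 and 13, against 14, 9 and 4. Control mice had more counts in all, with totals of 2986000 ± 534500 in nanoplastics mice and 4493000 ± 1302000 in control mice (SD, n = 4 and 3), so these counts were not compared.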

How the data were processed

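RNA was extracted with TRIZOL and converted to libraries with a Singleron AccuraCode kit, per the labels' protocols: oligo-dT beads captured the polyadenylated RNA, template switching put a well barcode at the 5' end, and pooled wells were amplified and sequenced as paired reads of 150 bp. The submitters' processing notes name STAR, without a version. The sources used here do not state the genome build, annotation, counting program, use of strand or use of molecular identifiers. The authors deposited raw counts per gene symbol, as 1 table with 20960 genes in 21 libraries, with 0 columns left unmapped. Amplified reads are not independent molecules, so counting intervals cover counting error only.

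Genes passing filterByExpr were tested with the robust quasi-likelihood test of edgeR 4.0.16 (R 4.3.3) after TMM scaling, with Benjamini-Hochberg adjustment over all genes tested and calls at 0.05. This test gives every adjusted p-value printed without the name of a tool. The replicate is the mouse: a mouse's 3 libraries were summed for the whole heart, and the mouse was a block where sections were compared and in the interactions. A replicate number stands for a different animal in each treatment group. Alternatives were library totals alone, DESeq2 1.42.0, limma-voom (limma 3.58.1), no filter, a lowess trend on transcript length (GENCODE M21, longest transcript, span 0.5) removed from each library, a replicate block, leaving out each mouse, and leaving out single libraries. Steps were tested on simulated data. Of simulated 2-fold changes, 68% were recovered in the whole heart, and 47%, 60% and 72% in the atrial, right and left ventricular sections. In the section pairs 84% to 90% were recovered. In the interactions the shares were 25% (atrial section against left ventricle) and 14% (right against left), so most differences of that size could be missed there.

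The genes and lists were chosen with earlier results of these data known. Values by mouse are given for called members, for the 3 smallest p in a comparison and for the most abundant member of each family; other members described for their role, or for groups that did not overlap, were added after their values were seen. Promoter sequences come from the RefSeq table of GRCm38.p6.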

Additional observations from a re-analysis of the deposited data

Results flagged for a closer look

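In 62 groups of 4 nanoplastics values, 4 had a single mouse or library whose gap to its nearest neighbour took most of the group's range by Dixon's test, where chance gives about 1 in 20. In the whole heart, Srsf7, an SR protein gene, had 64.04 CPM in nanoplastics mouse 1, against 39.31 to 42.04 CPM in the other nanoplastics mice. Hnrnpf, of the family that binds guanine runs, had 27.26 CPM in nanoplastics mouse 2, against 17.22 to 17.89 CPM in the others. The summed level of the Snrp genes was 893.2 CPM in nanoplastics mouse 1, against 719.1 to 729.7 CPM in the others. In the atrial section, Hnrnpu had 48.62 CPM in nanoplastics mouse 3, against 42.25 to 43.15 CPM in the others.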

How the results depend on the processing

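The count of called members in the whole heart, 1, became 7 with library totals alone (Hnrnpa2b1, Hnrnpdl, Hnrnph3, Hnrnpk, Hnrnpr, Srsf1 and Srsf10, all lower), 2 with DESeq2 and 2 with limma-voom (Snrpd2 higher and Hnrnpa2b1 lower in both), 0 without a filter and 0 with the length trend removed. It ranged from 0 to 1 when a mouse was left out. Snrpd2 stayed above 0 in all 15 alternatives (0.27 to 0.59) and was called in 7. In the right ventricle the count of 0 became 4 with library totals alone, all lower, and ranged from 0 to 1 when a mouse was left out. In the left ventricle it became 1 with DESeq2. The shares of all genes called under the same settings are not given here, so these counts do not set the members apart. The counts in the atrial section, the section pairs and the interactions were 0 in every alternative run. Library totals alone moved the median of all genes to -0.27 in the whole heart, -0.25 in the atrial section, -0.28 in the right and -0.20 in the left ventricle, and DESeq2 moved it to 0.48 in the right ventricle. The causes of these shifts were not tested.

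The replicate numbers did not pair the mice: same-numbered nanoplastics and control mice had correlations of 0.07, 0.09 and -0.04, and 1 of 3 correlated best with its own number. With the replicate block the whole-heart count was 1 and Snrpd2 had a log2 change of 0.52 (adjusted p = 0.0178). Without the block of mouse in the section pairs and interactions the count remained 0. Depth limits the scarce members: a level of 3 counts lies at 1.23 to 7.256 CPM over the libraries other than that of 4662 counts.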
